A study of Homo sapiens with 96 samples.

Results

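The genes described here are 31 members of the pathway that makes cholesterol and fatty acids under the SREBP transcription factors. They were chosen by name as genes of the pathway, with earlier results of these data known, and all 31 of 31 passed the filter on low counts in each of 5 count tables, out of 60605 gene IDs in 4 of the tables and 50037 gene symbols in the other one. By role they comprise 7 genes of the mevalonate branch, 11 of the branch from squalene to sterols, 5 regulators, 1 sterol carrier and 7 genes of fatty acid synthesis and desaturation. Every library came from K562, a human chronic myeloid leukaemia line, and the study of which they are part concerns the Polycomb complex PRC1.1 in leukaemic cells. The comparison at the centre is between GSK343, an inhibitor of the histone methyltransferase EZH2 of Polycomb complex PRC2, and 5PhIAA, a ligand that triggers degradation of proteins carrying an auxin-inducible degron.

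In the inhibitor table, K562 cells received ligand with GSK343, GSK343, ligand or DMSO, and the table's name gives the KDM2B degron, while its sample labels give only K562 and the treatment. A further table crossed the same 4 treatments with 2 lines, KDM2B-mAID_J2_7 (J2_7 below) and KDM2B-mAID (mAID below), whose names both carry the KDM2B degron. The name of that table speaks of JARID2 and AEBP2 double-knockout and wild-type cells, but no sample label says which of the 2 lines is which or whether either is 1 clone. Cells with a degron on BCOR and cells with a degron on KDM2B, both PRC1.1 subunits, received ligand for 2, 8, 24 or 72 h or were left untreated. The last table, called KDM2B mutant in its name, holds 5 lines labelled LF, SF, dLRRS, dCxxC and EV, abbreviations that are not spelled out, each with ligand or DMSO. Each of the 32 groups has 3 libraries, and no label says whether these came from separate cultures, so p-values measure only the spread between libraries, which may be technical. The sources used here give neither doses nor the duration of GSK343 treatment. Degrons act on protein, so RNA counts do not show whether the tagged protein was lost.

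SREBF1 and SREBF2 encode membrane-bound transcription factors that stay in the endoplasmic reticulum while sterols are plentiful, held there by SCAP and the INSIG proteins. When sterols fall, SCAP escorts the SREBPs to the Golgi apparatus, where proteases free their active fragments to enter the nucleus and switch on genes of sterol and fatty acid synthesis. INSIG1 is itself a target, which makes it a feedback brake. Genes of the mevalonate and sterol branches are known mainly as targets of the SREBF2 product, and fatty acid genes mainly as targets of the SREBF1 product. Leukaemic cells in culture use this pathway to supply membranes as they divide.

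Library totals ran from 782663 to 24545679 counts. The shallowest was GSK343 library 1 of J2_7 cells, and the construct table's shallowest, EV ligand library 1, held 2346542 counts. Levels below are CPM, counts scaled to a common library size with TMM factors, and fold changes are log2 values from edgeR's quasi-likelihood test, with a standard error (SE) and a Benjamini-Hochberg adjusted p over all genes tested. A gene was called when the adjusted p was under 0.05 and the absolute log2 fold change above 0.585, the thresholds that the labels state. Where members at an unadjusted p under 0.05 are counted below, the share of all genes was not worked out. Those counts are therefore not a result about the members. The erythroid genes GATA1, KLF1, TAL1, HBG1 and HBG2 had counts in all 96 libraries, while MS4A1 was at 0 in all 96, KRT5 in 95 and KRT14 in 93. Of other markers of lymphoid, fibroblast and epithelial cells, EPCAM stood at 9.26 to 94.8 CPM, while CD3E, CD79A, DCN, COL1A1 and COL1A2 peaked at 0.443 CPM (CD3E) to 2.30 CPM (COL1A2). These are bulk libraries, in which fewer cells of a type and less RNA per cell cannot be told apart.

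Promoter sequences, 250 bases before to 50 after a start site, were found for 27 of the 31 members in the RefSeq table of the GRCh38.p14 build. The first entry of each gene symbol was used. For some members, such as IDI1, ACLY, FADS1 and FADS2, its site lies away from the start of the gene's span in GENCODE release 44. Those of HMGCS1, MSMO1 and INSIG1 are shown because these members had the 3 largest log2 fold changes with GSK343 in the inhibitor table and in J2_7 cells, and that of SREBF2 because it is the one member window that holds the sterol response element searched for. Each is written 5′ to 3′ on the gene's own strand, and capitals mark CCAAT boxes on either strand (read as ATTGG on the reverse) and, in SREBF2, the sterol element.
HMGCS1, chr5:43313363-43313662, minus strand: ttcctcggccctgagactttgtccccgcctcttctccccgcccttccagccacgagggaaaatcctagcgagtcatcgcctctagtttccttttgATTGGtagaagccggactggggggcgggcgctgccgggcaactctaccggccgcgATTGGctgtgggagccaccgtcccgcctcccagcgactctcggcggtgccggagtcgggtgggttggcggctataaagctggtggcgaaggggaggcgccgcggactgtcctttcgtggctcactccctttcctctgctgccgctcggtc
MSMO1, chr4:165327419-165327718, plus strand: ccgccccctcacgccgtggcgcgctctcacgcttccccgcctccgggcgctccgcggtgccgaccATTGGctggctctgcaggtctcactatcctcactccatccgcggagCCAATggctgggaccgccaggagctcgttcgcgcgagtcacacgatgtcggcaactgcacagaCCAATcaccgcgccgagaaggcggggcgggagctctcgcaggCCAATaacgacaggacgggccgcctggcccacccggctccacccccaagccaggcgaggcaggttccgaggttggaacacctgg
INSIG1, chr7:155297628-155297927, plus strand: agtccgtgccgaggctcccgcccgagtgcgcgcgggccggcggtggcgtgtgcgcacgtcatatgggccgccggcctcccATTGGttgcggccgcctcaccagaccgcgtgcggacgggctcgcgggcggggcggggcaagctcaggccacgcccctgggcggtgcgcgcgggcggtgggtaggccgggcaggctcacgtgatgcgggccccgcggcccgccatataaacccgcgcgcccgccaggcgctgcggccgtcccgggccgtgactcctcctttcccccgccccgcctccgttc
SREBF2, chr22:41832855-41833154, plus strand: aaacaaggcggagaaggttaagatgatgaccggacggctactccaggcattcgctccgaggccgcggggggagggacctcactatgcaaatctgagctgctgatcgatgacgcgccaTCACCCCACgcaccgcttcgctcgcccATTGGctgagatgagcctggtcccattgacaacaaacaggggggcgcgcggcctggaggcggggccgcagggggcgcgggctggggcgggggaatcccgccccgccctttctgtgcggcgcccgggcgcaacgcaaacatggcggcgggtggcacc

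The sterol element, searched on both strands as TCACNCCAC, was present in 1 of 27 member windows (3.7%) and in 1.15% of all 27305 windows in the RefSeq table. CCAAT, the box bound by NF-Y, occurred in 17 of the 27 (63.0%) and in 35.7% of all windows. GGGCGG, the box bound by Sp1, occurred in 25 of the 27 (92.6%) and in 44.59% of all windows. The windows of all genes include genes that did not pass the count filter, while every member did. The motifs were not counted over tested genes alone, so these shares do not show that a motif is particular to the pathway. Each motif was counted on its own, so matches of different motifs may share bases, and a match describes letters and not binding. HMGCS1 holds 2 CCAAT boxes, MSMO1 holds 4 and INSIG1 holds 1.

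GSK343 raised most of the pathway in the inhibitor table. With GSK343, 17 of the 31 members were called higher than with DMSO and 0 lower, against 4.29% and 0.292% of the 13374 genes tested. The members' median log2 fold change was 0.68, and that of all genes tested was 0.02. With ligand, 0 members were called by edgeR or by DESeq2, against 2.55% of all genes, and 10 had an unadjusted p under 0.05, of which 9 were lower. At this share 0 of 31 says nothing particular of the members, which holds for each later ligand comparison with 0 called. The GSK343 and ligand comparisons with DMSO use the same 3 DMSO libraries. Set directly against ligand, GSK343 had 21 members higher and 0 lower, against 2.78% and 0.546% of all genes, with a median of 0.72.

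**Figure D1:**
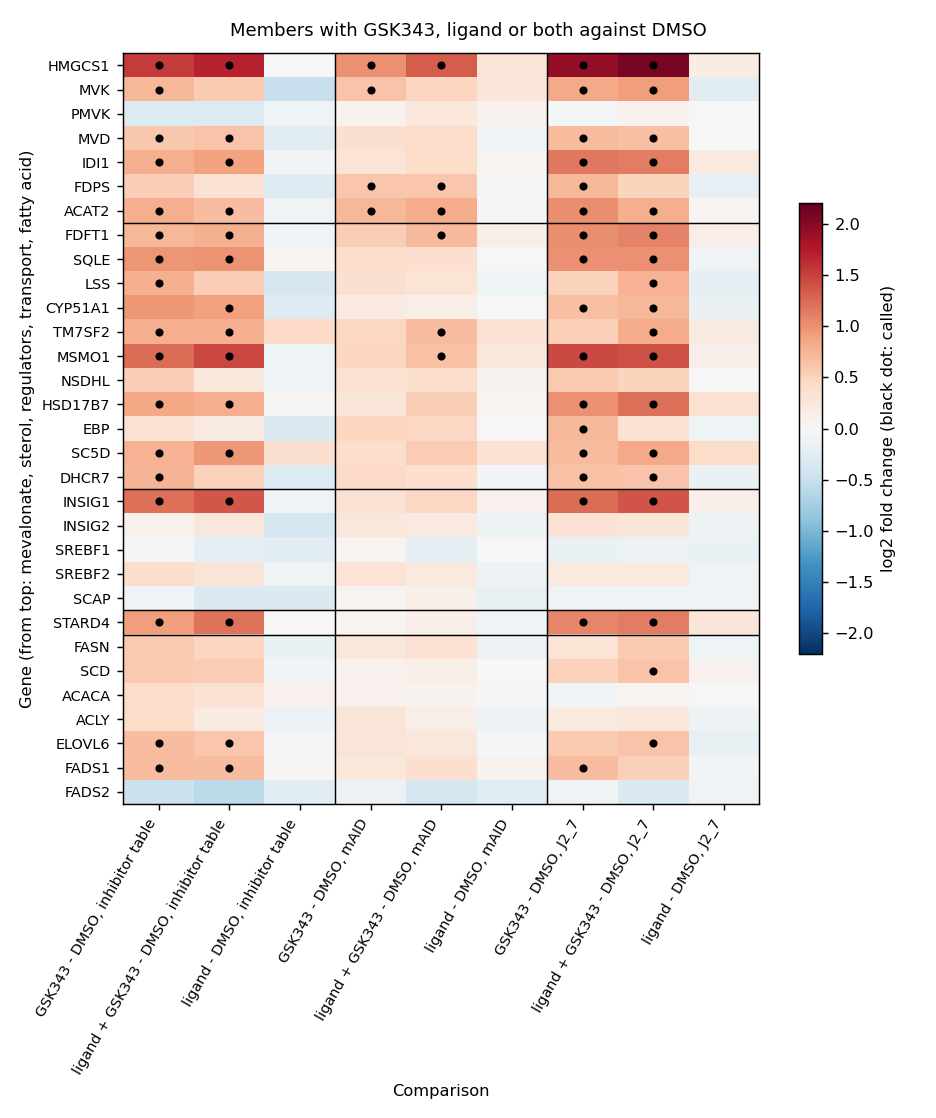
Log2 fold change (colour) of each of the 31 members (rows, grouped by role) with GSK343, with ligand and GSK343, and with ligand, each against DMSO, in the inhibitor table, mAID cells and J2_7 cells (columns). Black dots mark called members: 17, 15 and 0 in the inhibitor table, 4, 6 and 0 in mAID cells, and 17, 18 and 0 in J2_7 cells.

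In the mevalonate branch, HMGCS1, which makes HMG-CoA from acetoacetyl-CoA and acetyl-CoA, responded most. It stood at 694, 608 and 606 CPM in the GSK343 libraries, 237, 216 and 208 in the ligand libraries and 226, 204 and 226 in the DMSO libraries of the inhibitor table. Every GSK343 library lay above every ligand and DMSO library, while ligand and DMSO libraries overlapped. Against DMSO the log2 fold change was 1.54, SE 0.07, adjusted p = 2.15e-09, a rise of 2.90-fold. Against ligand it was almost the same (1.53, SE 0.07, adjusted p = 1.18e-09). Ligand against DMSO gave 0.01, adjusted p = 0.969. MVK, mevalonate kinase, was at 22.6, 22.2 and 23.6 CPM with GSK343, 8.71, 10.7 and 9.69 with ligand and 16.9, 11.6 and 12.6 with DMSO. It rose against DMSO (log2 fold change 0.73, SE 0.13, adjusted p = 0.00234) and by more against ligand (1.23, SE 0.14, adjusted p = 2.18e-05). All 3 ligand libraries lay below the DMSO libraries (log2 fold change -0.50, adjusted p = 0.0645, not called). Of the other genes of the branch, the thiolase gene ACAT2 (0.81), the isopentenyl diphosphate isomerase gene IDI1 (0.79) and the decarboxylase gene MVD (0.60) were called against DMSO. FDPS, which makes farnesyl diphosphate, was under the fold threshold (0.53, adjusted p = 0.000338), and PMVK, the second kinase of the branch, was at -0.30, adjusted p = 0.256. The MVD call ended without DMSO library 3 or GSK343 library 2.

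In the sterol branch 8 of 11 members were called higher with GSK343 than with DMSO. MSMO1, a sterol methyl oxidase, was at 90.1, 86.9 and 128 CPM with GSK343, 49.1, 39.5 and 34 with ligand and 52.3, 38.4 and 40.4 with DMSO. The GSK343 libraries were all higher, with library 3 above the other 2 (log2 fold change 1.22, SE 0.16, adjusted p = 0.000367; against ligand 1.32, SE 0.17, adjusted p = 0.000194). GSK343 library 3 also lay above the other 2 for STARD4 and below them for FDPS (239 against 295 and 291 CPM). For MSMO1 and FDPS it stood near the libraries with ligand and GSK343 (119 to 123 and 234 to 245 CPM). It stood nearer to those than to GSK343 libraries 1 and 2 for other members too, among them STARD4, SC5D, NSDHL, ACAT2 and DHCR7. HMGCS1 and SQLE did not set library 3 apart, and the pattern was not tested. SQLE, squalene epoxidase, showed 576, 618 and 578 CPM with GSK343, 343, 294 and 294 with ligand and 307, 298 and 301 with DMSO, again without overlap of GSK343 with either (log2 fold change 0.97, SE 0.06, adjusted p = 6.38e-08). HSD17B7, a sterol keto-reductase, was at 17.2, 20.3 and 19.5 CPM with GSK343, 11.7, 11.9 and 8.97 with ligand and 10.6, 9.81 and 11.8 with DMSO (log2 fold change 0.84, SE 0.13, adjusted p = 0.000579). LSS, lanosterol synthase, was at 192, 156 and 136 CPM with GSK343, 69.8, 75.7 and 71.5 with ligand and 96.4, 90.6 and 93 with DMSO. Its rise was 0.78 against DMSO and 1.15 against ligand (adjusted p = 0.000105 and 1.73e-06), and ligand libraries lay below DMSO libraries as they did for MVK (-0.37, adjusted p = 0.0599, not called). TM7SF2, a sterol reductase (0.80), SC5D, a sterol desaturase (0.76), DHCR7, which makes cholesterol from its direct precursor (0.75), and FDFT1, squalene synthase (0.72), were called too. The SC5D call ended without DMSO library 2, DMSO library 3 or GSK343 library 3. NSDHL (0.54, adjusted p = 0.00732) was under the fold threshold, and the sterol isomerase gene EBP was at 0.33, adjusted p = 0.0815. CYP51A1, lanosterol demethylase, was at 2.19, 4.20 and 2.74 CPM with GSK343, 0.917, 1.74 and 1.44 with ligand and 1.39, 2.21 and 1.43 with DMSO, and was called against ligand (1.23, SE 0.32, adjusted p = 0.0294) but not against DMSO (0.95, adjusted p = 0.0661). Its call against ligand ended without ligand library 1, ligand library 3 or GSK343 library 2.

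CYP51A1 values need care, because its counts in the tables with gene IDs were low. The inhibitor table held 8 to 77 per library, the BCOR course 7 to 66, the KDM2B course 17 to 60 and the construct lines 4 to 71, whereas the table of gene symbols held 184 to 3842. In GENCODE release 44 its span on chromosome 7 (92084987 to 92134803, hg38) overlaps other protein-coding entries on the same strand and AKAP9 on the opposite strand. The sources used here do not say how the authors' counting treated shared reads or whether it used strand, so its levels in the ID tables are uncertain. Of the 31 members 20 overlap another annotated gene. MVK overlaps MMAB on the opposite strand, and FADS1 and FADS2 overlap each other on opposite strands. EBP, TM7SF2 and FADS2 each overlap another protein-coding entry on the same strand, so the treatment of their shared reads is not known either. Against DMSO, MMAB was called higher with GSK343 in J2_7 cells (0.84) and with ligand and GSK343 in all 3 settings (0.65 in the inhibitor table, 0.61 in mAID and 0.79 in J2_7 cells).

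Among the regulators, INSIG1 alone was called. It stood at 650.3, 634 and 715 CPM with GSK343, 306, 266 and 255 with ligand and 299, 270.0 and 299 with DMSO (log2 fold change 1.20, SE 0.07, adjusted p = 2.89e-08; against ligand 1.27, SE 0.07, adjusted p = 1.55e-08). The GSK343 libraries did not overlap with either of the others. SREBF2 was at 179, 176 and 164 CPM with GSK343, 116, 125 and 128 with ligand and 137, 134 and 125 with DMSO, a difference without overlap from DMSO but under the fold threshold (0.39, adjusted p = 0.00157). SREBF1 was at 88.7, 98.1 and 96.2 CPM with GSK343, 67.5, 89.6 and 87.3 with ligand and 99.8, 99.8 and 91 with DMSO, and the GSK343 libraries overlapped with both (-0.03, adjusted p = 0.864). SCAP was at 131, 117 and 108 CPM with GSK343, 86, 107 and 111 with ligand and 127, 137 and 115 with DMSO, also overlapping (-0.10, adjusted p = 0.591). INSIG2, which shares the retention role of INSIG1, was at 0.09, adjusted p = 0.701. RNA counts do not show whether the SREBP proteins were cleaved.

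STARD4, which carries cholesterol between membranes, was at 60.2, 59.2 and 94.5 CPM with GSK343, 49.1, 34.3 and 30.7 with ligand and 41.4, 33.3 and 39.7 with DMSO. It was called (log2 fold change 0.91, SE 0.19, adjusted p = 0.0115), although the call ended without DMSO library 2. In the fatty acid branch 2 of 7 members were called against DMSO, the elongase gene ELOVL6 (0.68) and the desaturase gene FADS1 (0.67). The stearoyl-CoA desaturase gene SCD (0.57) and the fatty acid synthase gene FASN (0.57) lay just under the fold threshold, with adjusted p = 1.98e-06 and 0.000875, and both were called against ligand (0.63 and 0.72). ACLY, which makes cytosolic acetyl-CoA (0.41, adjusted p = 0.000512), and the acetyl-CoA carboxylase gene ACACA (0.40, adjusted p = 0.000147) were under it too. FADS2 was the one member that was lower by adjusted p alone (-0.47, adjusted p = 0.0132, not called), where 3.49% of all genes were, at 31.6, 38.3 and 29.9 CPM with GSK343 and 45.1, 47.2 and 46.9 with DMSO.

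**Figure D2:**
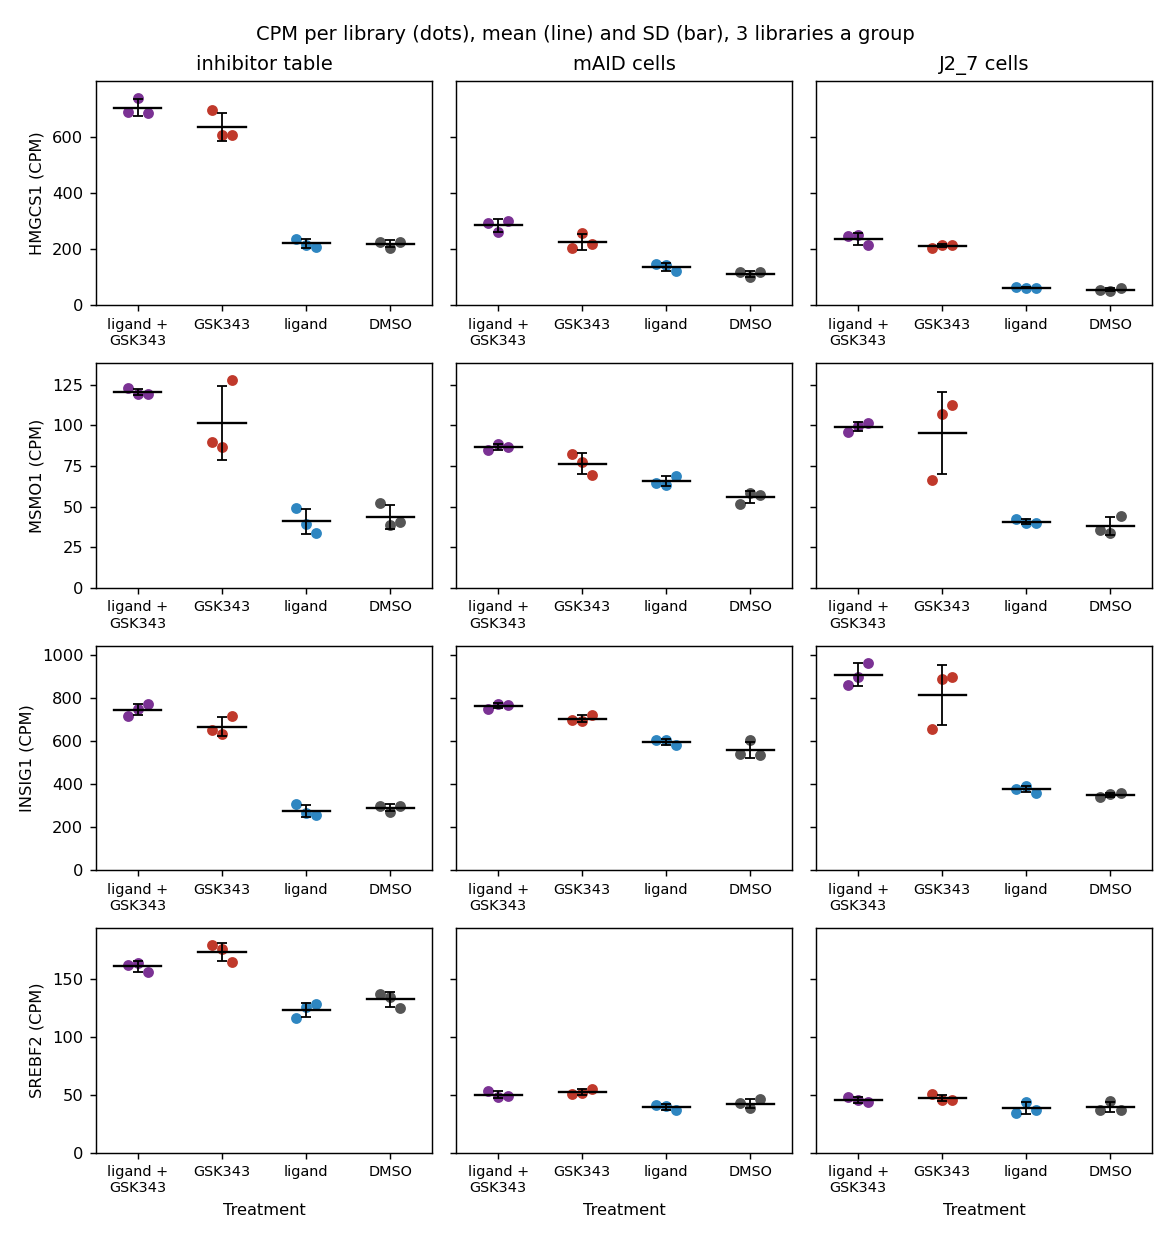
CPM in every library (dots) with the mean (line) and SD (bar) of 3 libraries, for HMGCS1, MSMO1, INSIG1 and SREBF2 (rows) with ligand and GSK343, GSK343, ligand or DMSO in the inhibitor table, mAID cells and J2_7 cells (columns). HMGCS1 averaged 636 CPM with GSK343 and 219 with DMSO in the inhibitor table, 227 and 112 in mAID cells, and 212 and 55.6 in J2_7 cells.

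In mAID cells fewer members were called. With GSK343, 4 members were called higher than with DMSO and 0 lower, against 0.601% and 0.0614% of the 14649 genes tested, and the median log2 fold change was 0.30, against 0.02 over all genes. All 4 belong to the mevalonate branch. The log2 fold change was above 0 for 30 of the 31 members, but the share of all genes above 0 was not worked out. By adjusted p alone 11 members were higher, against 1.21% of all genes. Ligand gave 0 called members by edgeR or DESeq2, against 2.31% of all genes, with 5 at an unadjusted p under 0.05, all higher. At that share 0 is not a result about the members.

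HMGCS1 was at 204, 259 and 217 CPM with GSK343, 147, 145 and 120.4 with ligand and 119.6, 99.2 and 118 with DMSO in mAID cells. Its log2 fold change was 1.01, SE 0.10, adjusted p = 7.77e-08 against DMSO, and against ligand it was 0.72, SE 0.09, adjusted p = 1.06e-05. The GSK343 libraries lay above all others, and each ligand library lay above each DMSO library by a margin that missed the test (0.29, adjusted p = 0.106). ACAT2 was at 239.8, 262 and 258 CPM with GSK343, 152, 148 and 162 with ligand and 139, 162 and 155 with DMSO, with GSK343 apart from the rest (log2 fold change 0.74, SE 0.08, adjusted p = 7.12e-07). FDPS was at 364, 378 and 348 CPM with GSK343, 222, 230.2 and 239 with ligand and 224, 259 and 234 with DMSO (log2 fold change 0.61, SE 0.08, adjusted p = 3.78e-05). MVK was at 28.6, 32.9 and 26.1 CPM with GSK343, 22.8, 22.6 and 22.8 with ligand and 22.3, 16.2 and 17.6 with DMSO (log2 fold change 0.62, SE 0.12, adjusted p = 0.00329). FDPS and MVK sat close to the fold threshold, and both calls ended without DMSO library 3 or GSK343 library 2, which left 2 called members. The FDPS call ended without DMSO library 1 too, and that of MVK without DMSO library 2. Against ligand 3 members were called, HMGCS1, ACAT2 (0.72) and FDPS (0.66), against 0.553% of all genes called higher.

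Outside the mevalonate branch no member was called in mAID cells with GSK343 alone. INSIG1 was at 697, 694 and 721 CPM with GSK343, 604, 603 and 581 with ligand and 539, 603 and 534 with DMSO, without overlap but under the fold threshold (0.33, adjusted p = 0.038). MSMO1 was at 82.3, 77.6 and 69.5 CPM with GSK343, 64.6, 63.3 and 69.1 with ligand and 51.4, 58.4 and 57 with DMSO (0.46, adjusted p = 0.0145). STARD4 overlapped between GSK343 and DMSO (0.06, adjusted p = 0.878). SREBF1 was at 63.8, 53.4 and 71.9 CPM with GSK343, 56.9, 58.7 and 64.8 with ligand and 63.7, 56.1 and 61.3 with DMSO, with overlap throughout. SREBF2 was at 50.4, 51.2 and 54.9 CPM with GSK343, 40.7, 40.4 and 36.6 with ligand and 42.7, 38.2 and 45.8 with DMSO, the GSK343 libraries being higher by a small margin. SCAP was at 76.2, 72.6 and 64.4 CPM with GSK343, 61.3, 52.6 and 70.1 with ligand and 71.5, 58.8 and 73 with DMSO. None of these 3 regulators passed the test with GSK343 (adjusted p = 0.788, 0.0941 and 0.838 for SREBF1, SREBF2 and SCAP).

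In J2_7 cells the count of called members equalled that of the inhibitor table. With GSK343, 17 members were called higher than with DMSO and 0 lower, against 2.12% and 0.191% of the 14649 genes tested, with a median of 0.65 and 0.01 over all genes. They were 6 of the 7 mevalonate genes, 8 of the 11 sterol genes, INSIG1, STARD4 and, among 7 fatty acid genes, FADS1. Ligand gave 0 called members by edgeR or DESeq2, against 2.39% of all genes, with 4 at an unadjusted p under 0.05. Here too 0 is not a result about the members. Against ligand, GSK343 had 18 members higher and 0 lower, against 1.24% and 0.819% of all genes. GSK343 library 1, with 782663 counts, stood apart for several members, and without it 16 members were called against DMSO.

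HMGCS1 in J2_7 cells was at 205, 215 and 216 CPM with GSK343, 63.3, 59.9 and 62 with ligand and 55.2, 50.8 and 60.7 with DMSO. The rise against DMSO was 3.83-fold (on the log2 scale 1.94, SE 0.10, adjusted p = 2.01e-14). Against ligand the log2 fold change was 1.78, SE 0.10, adjusted p = 3.1e-13. MSMO1 was at 66.1, 107 and 112 CPM with GSK343, 42.3, 39.9 and 40.2 with ligand and 35.7, 33.6 and 44 with DMSO, with GSK343 library 1 below the other 2 but above all ligand and DMSO libraries (log2 fold change 1.45, SE 0.11, adjusted p = 4.79e-11). INSIG1 showed the same layout, at 655, 888 and 898 CPM with GSK343, 379, 390.0 and 359 with ligand and 338, 352 and 359 with DMSO (log2 fold change 1.23, SE 0.09, adjusted p = 3.33e-11). IDI1 was at 206, 224 and 239.6 CPM with GSK343, 112, 111 and 129.9 with ligand and 99.8, 101 and 104 with DMSO (log2 fold change 1.15, SE 0.09, adjusted p = 1.06e-10). STARD4 was at 29.1, 36.4 and 35.4 CPM with GSK343, 19.8, 20.3 and 20.9 with ligand and 17.3, 17.9 and 15.2 with DMSO (log2 fold change 1.07, SE 0.14, adjusted p = 5.48e-06). For both, no GSK343 library overlapped with a ligand or DMSO library.

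ACAT2 was at 292, 280.5 and 293 CPM with GSK343, 136, 145 and 161 with ligand and 133, 139 and 155 with DMSO in J2_7 cells (log2 fold change 1.02, SE 0.08, adjusted p = 1.96e-10). SQLE was at 264, 294 and 309 CPM with GSK343, 137, 142 and 134 with ligand and 149.7, 146 and 142 with DMSO (1.01 against DMSO and 1.09 against ligand). MVK was at 30.4, 24.3 and 19.6 CPM with GSK343, 11.3, 7.39 and 11.8 with ligand and 12.5, 12.8 and 12.9 with DMSO (0.83 against DMSO and 1.05 against ligand). All 3 genes were higher in each GSK343 library than in each ligand or DMSO library. The other called members ranged from 0.64 (DHCR7) to 1.02 (FDFT1) against DMSO. CYP51A1, which had ample counts in this table, was among them at 243, 308 and 337 CPM with GSK343, 179, 193 and 156 with ligand and 200.4, 198 and 179.9 with DMSO (log2 fold change 0.65, SE 0.10, adjusted p = 3.52e-05). Without GSK343 library 3 the calls of CYP51A1, DHCR7 and SC5D ended. EBP (0.72) was lost without GSK343 library 1, where it read 442 CPM, the highest of all libraries of the table.

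The genes of the SREBPs and of SCAP did not pass the test in J2_7 cells. SREBF1 was at 42.3, 49.7 and 47.4 CPM with GSK343, 50.1, 48.8 and 46.7 with ligand and 50.5, 54.9 and 55.6 with DMSO (-0.16, adjusted p = 0.296). SREBF2 was at 50.3, 45.6 and 45.3 CPM with GSK343, 34.3, 44 and 36.6 with ligand and 36.8, 44.3 and 37.1 with DMSO (0.22, adjusted p = 0.152). SCAP was at 87.3, 52.2 and 55.2 CPM with GSK343, 57.2, 54.7 and 59.3 with ligand and 61.8, 61.8 and 58.9 with DMSO (-0.08, adjusted p = 0.742), and its high value is again that of the shallow library 1. The fatty acid genes FASN (0.31), SCD (0.50), ELOVL6 (0.57), ACLY (0.21), ACACA (-0.07) and FADS2 (-0.09) were not called.

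Across the 3 settings, HMGCS1, ACAT2 and MVK were called higher with GSK343 against DMSO each time, and 14 members were called in both the inhibitor table and J2_7 cells, out of 17 in each. The log2 fold change was above 0 in all 3 settings for 26 members and below 0 in all 3 for 1, FADS2. The shares of all genes with the same sign in all 3 were not worked out. The 11 members called in none of the 3 were PMVK, NSDHL, INSIG2, SREBF1, SREBF2, SCAP, FASN, SCD, ACACA, ACLY and FADS2. Each setting has its own DMSO libraries.

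Whether GSK343 acted differently on the 2 lines was tested as a difference of effects, J2_7 minus mAID. It was called for 6 members, all larger in J2_7 cells, against 0.123% of all genes, which is 18 genes. No gene of the table was called with a smaller effect in J2_7 cells (0%). The 6 members were STARD4 (1.01, SE 0.20, adjusted p = 0.0142), MSMO1 (0.99, SE 0.15, adjusted p = 0.000549), HMGCS1 (0.93, SE 0.14, adjusted p = 0.000473), INSIG1 (0.90, SE 0.12, adjusted p = 0.000143), IDI1 (0.85, SE 0.12, adjusted p = 0.000343) and SQLE (0.61, SE 0.10, adjusted p = 0.00365). Their products are a feedback regulator (INSIG1), enzymes of the mevalonate and sterol steps (HMGCS1, IDI1, SQLE, MSMO1) and a sterol carrier (STARD4), and 0 of the fatty acid members were among them. The STARD4 call ended without mAID DMSO library 1, mAID GSK343 library 2, J2_7 DMSO library 3 or J2_7 GSK343 library 2 or 3. That of SQLE ended without mAID DMSO library 1, mAID GSK343 library 1 or J2_7 GSK343 library 2 or 3, and over all omissions the count ranged from 4 to 7. Without the shallow GSK343 library 1 of J2_7 cells it was 6. For ACAT2 (0.28, adjusted p = 0.49), MVK (0.21, adjusted p = 0.809) and FDPS (0.13, adjusted p = 0.822) the difference did not pass the test.

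**Figure D3:**
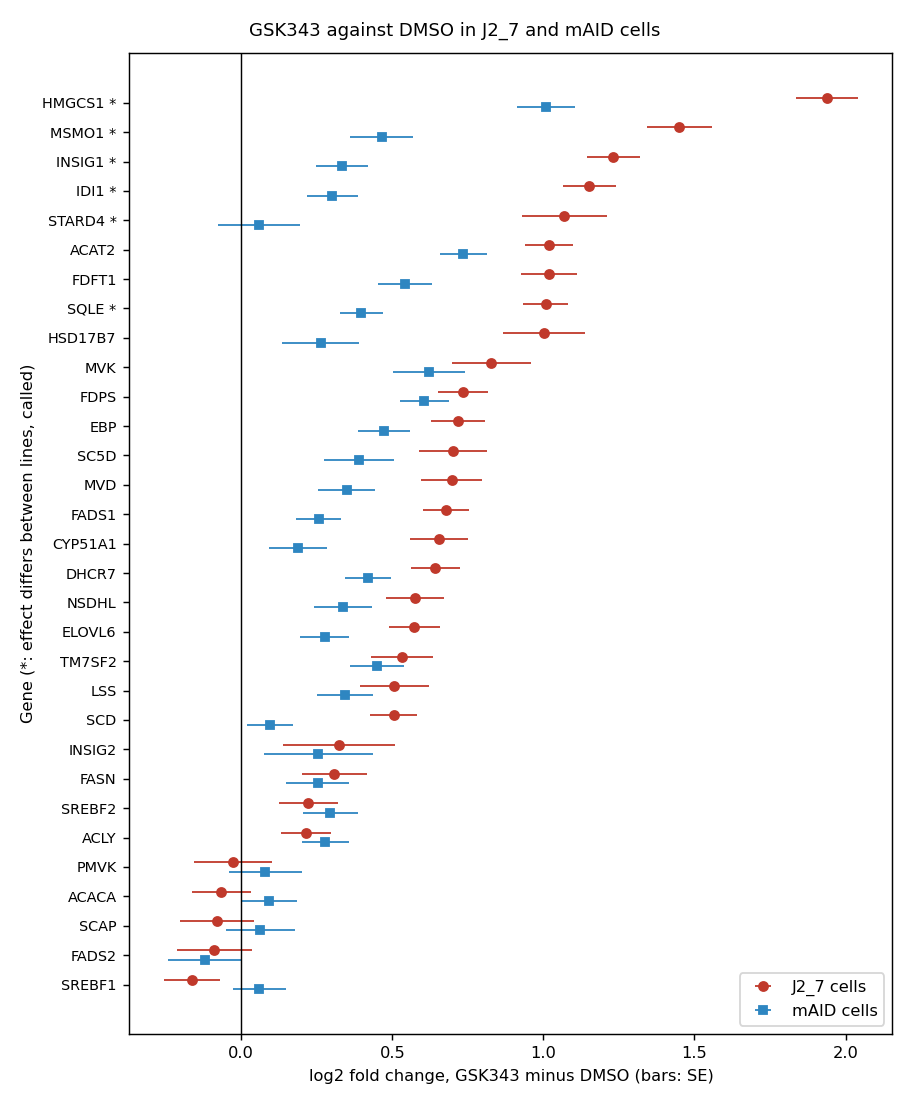
Log2 fold change of GSK343 minus DMSO with its SE (bars) for the 31 members in J2_7 cells (circles) and mAID cells (squares), 3 libraries a group, ordered by the value in J2_7 cells. An asterisk marks the 6 members whose effect differed between the lines, of which HMGCS1 stood at 1.94 in J2_7 and 1.01 in mAID cells.

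The lines already differed without GSK343. With DMSO, 0 members were higher and 7 lower in J2_7 than in mAID cells, against 3.5% and 10.7% of all genes, with a median of -0.33 and 0.01 over all genes. HMGCS1 was at 55.6 ± 4.99 CPM in J2_7 and 112 ± 11.3 in mAID cells (SD, n = 3 each; log2 fold change -1.02, adjusted p = 9.27e-10 by edgeR). LSS was at 8.75 ± 0.582 CPM in J2_7 and 18.6 ± 1.31 in mAID cells (-1.09), FADS1 was at -0.97, TM7SF2 at -0.87, HSD17B7 at -0.75, INSIG1 at -0.68 and STARD4 at -0.63. Without mAID DMSO library 1 the STARD4 call ended. HMGCS1, INSIG1 and STARD4 are thus both called lower with DMSO in J2_7 cells and among the 6 with the larger GSK343 effect. IDI1, SQLE and MSMO1, the rest of the 6, were lower with DMSO too, without overlap but not called. They averaged 102, 146 and 37.8 CPM in J2_7 and 147, 198 and 55.6 CPM in mAID cells. The difference of effects uses the same DMSO libraries. With GSK343 the levels stood side by side at 212 ± 5.97 CPM in J2_7 and 227 ± 28.3 in mAID cells for HMGCS1, and at 814 ± 138 CPM in J2_7 and 704 ± 14.5 in mAID cells for INSIG1 (SD, n = 3 each). These levels under GSK343 were not tested against each other.

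Ligand given together with GSK343 gave a rise of HMGCS1, the largest among the members, in each setting too. With both agents 15 members were higher than with DMSO in the inhibitor table, against 9.53% of all genes. There were 6 in mAID cells, against 5.5%, and 18 in J2_7 cells, against 6.38%, and 0 were lower in each (1.14%, 0.806% and 0.218% of all genes). HMGCS1 with both agents was at 687, 739 and 685 CPM in the inhibitor table (log2 fold change 1.68), 294, 259 and 300.5 in mAID (1.34) and 245, 252 and 213 in J2_7 cells (2.09). In mAID cells FDFT1 (0.71), TM7SF2 (0.68) and MSMO1 (0.65) joined HMGCS1, ACAT2 (0.82) and FDPS (0.60) in being called. The interaction of ligand and GSK343, which asks whether the joint effect departs from the sum of both on the log2 scale, was called for 0 members by edgeR and by DESeq2 in each setting. Of all genes 0% were called in the inhibitor table and in mAID cells and 0.00683% (lower) in J2_7 cells. At an unadjusted p under 0.05 there were 2 members in the inhibitor table, 2 in mAID and 4 in J2_7 cells. The members' interaction estimates lay between -0.44 and 0.56, -0.41 and 0.24, and -0.30 and 0.46 in these settings.

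Few members passed the fold threshold in the degradation time courses, while more passed on adjusted p alone. After BCOR ligand treatment 0 members were called at 2 h by edgeR or DESeq2 (0.836% of all genes; 5 members at an unadjusted p under 0.05). At 8 h 0 were higher and 1 lower, at 24 h 0 and 2, and at 72 h 0 and 2. Of all genes 0.262%, 1.16% and 2.37% were lower and 2.45%, 3.03% and 4.74% higher at these times. On adjusted p alone 5 members were lower at 24 h and 8 at 72 h, against 6.8% and 8.98% of all genes. At an unadjusted p under 0.05 there were 9 and 14 members, 8 and 13 of them lower, without a share of all genes to set beside them. The members past the fold threshold were CYP51A1 at 8 h (-1.29, adjusted p = 0.0104), 24 h (-1.24, adjusted p = 0.0105) and 72 h (-1.24, adjusted p = 0.00334) and EBP at 24 h (-0.70, adjusted p = 0.000226) and 72 h (-0.59, adjusted p = 0.000376). CYP51A1 was at 1.02, 1.39 and 2.45 CPM at 72 h and 4.73, 2.92 and 4.18 untreated, values that rest on 7 to 66 counts a library. EBP was at 47.4, 44 and 42.8 CPM untreated, 29.9, 25.5 and 26.2 at 24 h and 29.4, 28.3 and 31.6 at 72 h, the treated libraries all being lower. EBP too overlaps a protein-coding entry on the same strand. CYP51A1 was lost at 8 h without 8 h library 1 and at 24 h without 24 h library 1, and EBP at 72 h without untreated library 1, 72 h library 1 or 72 h library 2.

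HMGCS1 in the BCOR course was at 174, 165 and 232 CPM untreated, 179, 171 and 255 at 2 h, 173, 166 and 205 at 8 h, 200.3, 220.2 and 179.9 at 24 h and 216, 205 and 203 at 72 h. INSIG1 was at 318, 355 and 561 CPM untreated, 343, 366 and 468 at 2 h, 355, 389 and 540.1 at 8 h, 358, 390.0 and 403 at 24 h and 370.5, 389 and 368 at 72 h. For both genes the libraries numbered 3 were the highest of the untreated, 2 h and 8 h groups, and all groups overlapped with the untreated one. MSMO1 (49.3, 52.7 and 92.6 CPM untreated), STARD4 (44.3, 55.5 and 79.9) and FDFT1 (249, 229 and 339) had the same high untreated library 3. SREBF1, SREBF2 and SCAP ranged over all 15 libraries from 70.7 to 109 CPM, 115 to 159 CPM and 111 to 148 CPM and were called at no time.

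**Figure D4:**
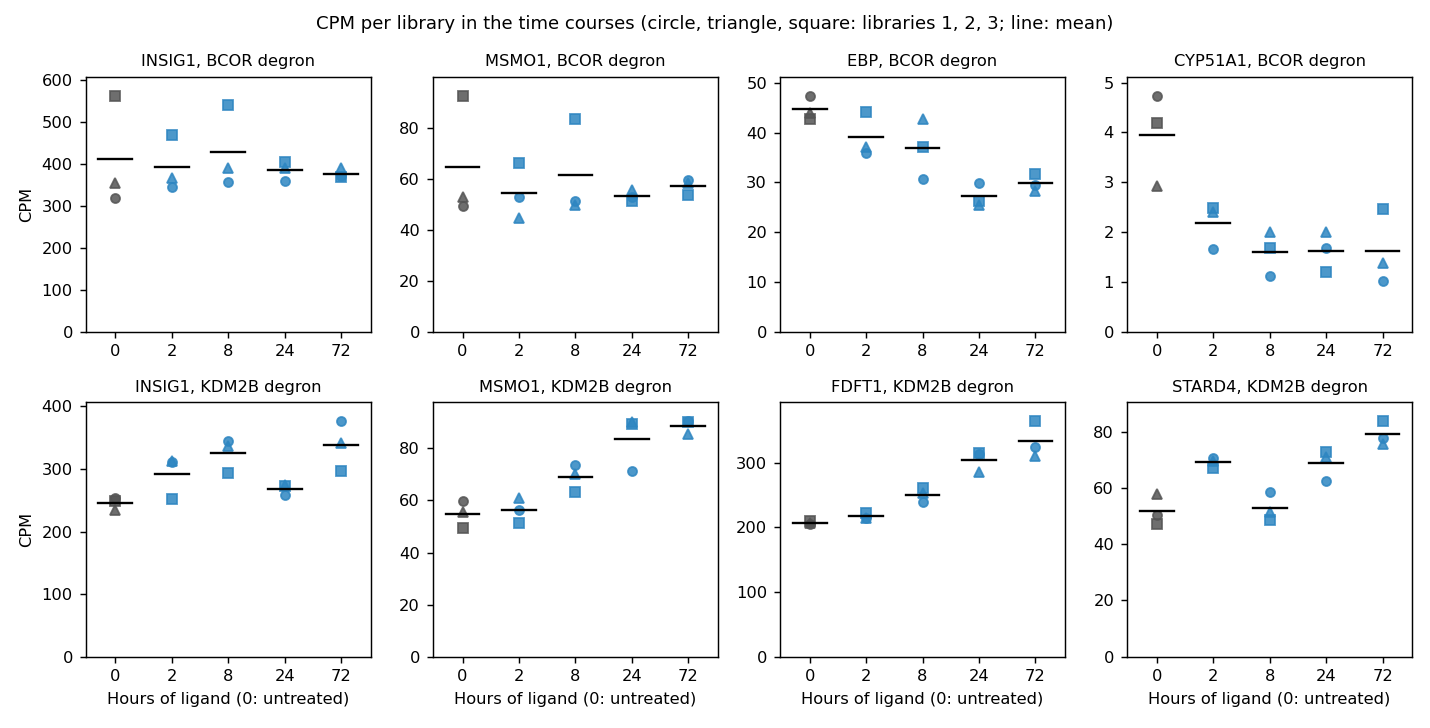
CPM in every library of the BCOR (top) and KDM2B (bottom) degron time courses against hours of ligand on an evenly spaced axis, with 0 for untreated cells, a symbol for each library number and a line at the mean. INSIG1 and MSMO1 have a high library 3 in untreated BCOR-degron cells (561 and 92.6 CPM), and FDFT1 in KDM2B-degron cells averages 333 CPM at 72 h and 207 CPM untreated.

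After KDM2B ligand treatment members called numbered 0 at 2 h (1.76% of all genes; 6 at an unadjusted p under 0.05), 0 at 8 h (4.24% of all genes; 7), 1 at 24 h and 4 at 72 h, where they were all higher. Of all genes 9.54% and 6.55% were higher and 2.97% and 3.96% lower at 24 and 72 h, and DESeq2 gave the same counts of members. On adjusted p alone 8 members were higher at 24 h and 11 at 72 h, against 17.7% and 13.8% of all genes. At an unadjusted p under 0.05 there were 10 and 16 members, 9 and 14 of them higher, again without a share of all genes. At 72 h FDFT1 was at 324, 311 and 364 CPM and untreated at 205, 207 and 209 (log2 fold change 0.68, SE 0.07, adjusted p = 4.43e-07). MSMO1 was at 90.4, 85.4 and 90.1 CPM at 72 h and 59.9, 55.5 and 49.2 untreated (log2 fold change 0.69, SE 0.10, adjusted p = 2.5e-05), and had been called at 24 h (0.60, SE 0.10, adjusted p = 7.53e-05). The 24 h call ended without untreated library 3 or 24 h library 2 or 3. SC5D was at 52.5, 54.7 and 56.1 CPM at 72 h and 36.1, 38.7 and 31.6 untreated (log2 fold change 0.62, SE 0.11, adjusted p = 0.000442). STARD4, named here with its value already seen, was at 77.8, 75.5 and 83.7 CPM at 72 h and 50.3, 57.9 and 47 untreated (log2 fold change 0.61, SE 0.09, adjusted p = 3.55e-05). None of the 4 overlapped between the groups. The count at 72 h was 2 without untreated library 3, where SC5D and STARD4 were lost (STARD4 without 72 h library 3 too), and the count at 24 h was 0 without untreated library 3 or 24 h library 3. At 24 h, 1 of 31 is no larger a share than that of all genes.

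HMGCS1 in the KDM2B course was at 291, 321 and 281 CPM untreated, 297, 319 and 319.9 at 2 h, 299, 284 and 262 at 8 h, 279, 291 and 333 at 24 h and 432, 391 and 376 at 72 h. Only the 72 h libraries lay clear of the untreated ones, under the fold threshold (0.42, adjusted p = 0.000504). INSIG1 was at 254, 235 and 249 CPM untreated, 311, 312 and 253 at 2 h, 345, 337 and 293 at 8 h, 258, 274 and 274 at 24 h and 376, 341 and 296 at 72 h, with 0.46, adjusted p = 0.000819 at 72 h. The medians over the 31 members were 0.03, 0.06, 0.06 and 0.16 at the 4 times. SREBF1, SREBF2 and SCAP ranged over the 15 libraries from 77.0 to 111 CPM, 116 to 169 CPM and 96.3 to 134 CPM, and were called at no time. HMGCS1 was called at no time of either degron course.

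In the construct table, ligand gave 1 called member in EV cells and 0 in LF, SF, dLRRS and dCxxC cells, where DESeq2 gave 0 as well and 4, 3, 2 and 6 members had an unadjusted p under 0.05. Of all genes 2.95% were higher and 0.321% lower in EV cells, and 0.00629%, 0.0189%, 3.41% and 0.0189% were called in LF, SF, dLRRS and dCxxC cells. The member in EV cells was CYP51A1, at 1.80, 1.40 and 1.23 CPM with ligand and 3.66, 3.08 and 1.60 with DMSO (log2 fold change -1.06, SE 0.29, adjusted p = 0.0142), on few counts, and its call ended without EV DMSO library 1 or 2 or EV ligand library 2 or 3. The shallow EV ligand library 1 read high for MSMO1 (71.6, 44.2 and 55.7 CPM in the 3 ligand libraries) and STARD4 (62.6, 35.1 and 43.4). HMGCS1 ranged from 214 to 389 CPM over the 30 libraries and INSIG1 from 240 to 475 CPM. SREBF1 ranged from 70.3 to 122 CPM, SREBF2 from 119 to 211 CPM and SCAP from 93.3 to 164 CPM. The highest HMGCS1 value and the lowest SREBF1, SREBF2 and SCAP values were all those of the shallow EV ligand library 1.

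Against EV with DMSO, LF cells had 0 called members (15.3% of all genes called; 14 members at an unadjusted p under 0.05, and 0 by DESeq2), and SF, dLRRS and dCxxC cells had 2 higher and 1 lower each. Of all genes, 4.17% were higher and 9.47% lower in SF, 4.82% and 7.13% in dLRRS, and 10.3% and 8.93% in dCxxC cells, so the members' counts stood near or below the background. MSMO1 was at 90.3, 66.8 and 78.7 CPM in SF (0.80, SE 0.13, adjusted p = 3.16e-05) and 83.7, 82.1 and 91.4 in dLRRS cells (0.93, SE 0.13, adjusted p = 4.85e-06), against 44.7, 43.6 and 47.4 in EV cells. STARD4 was at 62.3, 63.6 and 73.1 CPM in dLRRS (0.82) and 60.5, 65.7 and 64.9 in dCxxC cells (0.75), against 36.9, 37 and 39.6 in EV cells. TM7SF2 was higher in dCxxC (1.04, SE 0.10, adjusted p = 3.36e-12) and ELOVL6 in SF cells (0.76, SE 0.05, adjusted p = 1.57e-15). The libraries of these groups did not overlap with those of EV. CYP51A1 was the lower member in SF (-0.68), dLRRS (-0.68) and dCxxC cells (-1.31), and the first 2 of these calls ended with DESeq2 and without EV DMSO library 1 or 2. The SF call ended without SF DMSO library 1 or 3 too, and the dLRRS call without dLRRS DMSO library 2 or 3.

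**Figure D5:**
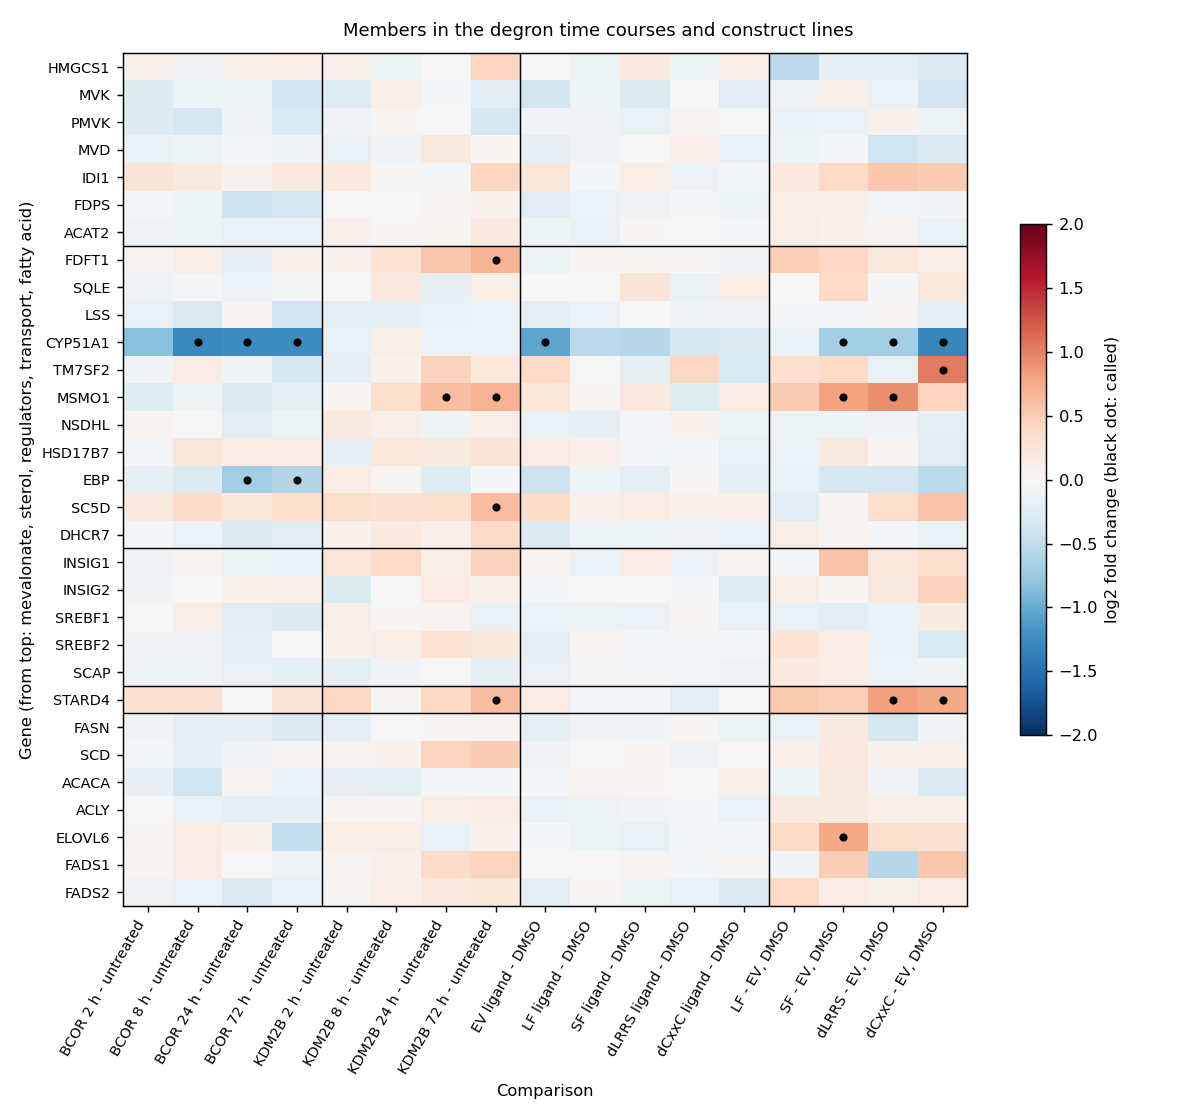
Log2 fold change (colour) of the 31 members (rows, grouped by role) at each ligand time against untreated cells, with ligand against DMSO in 5 construct lines, and in 4 construct lines against EV with DMSO (columns). Black dots mark called members, at most 4 in a comparison (KDM2B degron at 72 h), and the dots of CYP51A1 rest on few counts.

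Genes that neighbour the members in the same metabolism were counted in the same fits, from lists drawn up with earlier results of these data known. Of 20 other genes of the SREBP pathway, 4 were called higher with GSK343 than with DMSO in the inhibitor table, where 4.29% of all genes were, with a list median of 0.23. They included the acetyl-CoA synthetase gene ACSS2 (0.81), the malic enzyme gene ME1 (0.77) and the sterol scaffold gene ERG28 (0.68). In mAID cells 2 were called, the sterol transporter gene NPC2 (0.63) and ERG28 (0.59), against 0.601% of all genes higher, with a median of 0.15. In J2_7 cells 4 were called, among them ACSS2 (0.87), NPC2 (0.80) and ERG28 (0.64), against 2.12% of all genes higher, with a median of 0.15. None was lower in any of the 3. With ligand against DMSO 0 of the 20 were called in each of the 3 settings, where 2.55%, 2.31% and 2.39% of all genes were, so that the 0 says nothing particular of the list.

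Of 10 genes of sterol sensing, export and uptake, among them targets of the LXR receptors, 8, 7 and 7 were tested in the inhibitor table, mAID and J2_7 cells, and 0 were called with GSK343 against DMSO in each, with medians of 0.08, 0.11 and 0.02. Of 14 fatty acid oxidation genes 13 were tested in each setting, and 0 were called with GSK343 against DMSO, with medians of -0.03, 0.09 and 0.00. Of all genes 4.29%, 0.601% and 2.12% were higher in these comparisons, shares at which 0 of lists this short is not a result about them. With ligand against DMSO, 1 of 13 oxidation genes was called in the inhibitor table (2.55% of all genes called) and 0 of 13 in mAID (2.31%) and J2_7 cells (2.39%). The gene was CPT1A, which admits fatty acids to mitochondria, at 0.93 in the inhibitor table (adjusted p = 2.64e-06 by edgeR), and at 0.55 in mAID and 0.54 in J2_7 cells, under the fold threshold. Of 14 oxidation genes tested in the other tables, CPT1A was the 1 gene called in EV (0.72; 2.95% of all genes higher) and dLRRS cells (1.24; 3.41% of all genes called) and 0 were called in LF, SF and dCxxC cells. After BCOR ligand 0 of 14 were called at 2 h and CPT1A alone at 8 h (0.61), 24 h (0.95) and 72 h (0.89), where 2.45%, 3.03% and 4.74% of all genes were higher. After KDM2B ligand 0, 0, 3 and 1 of 14 were called at 2, 8, 24 and 72 h, all higher, against 9.54% and 6.55% of all genes higher at 24 and 72 h. They were PDK4, a kinase gene that limits glucose oxidation (2.24 and 1.97), with CPT2 (0.60) and ACADS (0.59) at 24 h, while CPT1A stayed under the fold threshold there (0.54 at 24 h and 0.47 at 72 h). Of the sterol sensing, export and uptake genes, 0 were called with ligand in the inhibitor table, mAID, J2_7 and construct lines, 1 of 8 was lower in the BCOR course at 72 h (LPCAT3, -0.63), and 1 of 8 was higher in the KDM2B course at 24 and 72 h (VLDLR, 3.06 and 2.25). All genes of these lists that are named were chosen after their values were seen.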

How the data were processed

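RNA was measured in 96 K562 libraries, 3 in each of 32 groups. The authors deposited raw counts per gene in 4 tables, indexed by Ensembl ID, and estimated (expected) counts per gene symbol in the table of mAID and J2_7 cells. Per the labels' protocols, libraries were made with a ribosomal RNA depletion kit, reads were aligned with STAR in 2-pass mode to hg38 and differences were tested with DESeq2; for the table of estimated counts the labels also name Smart-3SEQ. The counting program, annotation and strand setting were not given in the sources used here.

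Estimated counts were rounded to whole numbers (57.9% of values above 0 were whole as deposited) and 92 spike-in entries were dropped. Each table was fitted on its own with all its groups in edgeR 4.0.16 (R 4.3.3): filterByExpr, TMM scaling, robust quasi-likelihood F tests and Benjamini-Hochberg adjustment over the 13374 to 15910 genes tested. Levels are not compared between tables. The steps were tested on simulated data with known changes. Median library totals per table ran from 9141898 to 15015846 counts. DESeq2 1.42.0, other scaling (RLE), no filter, a fit of the compared groups alone, a replicate block and omission of each library were run as alternatives. Replicate numbers of the BCOR table and of the mAID and J2_7 table were checked for pairing by the correlation of same-numbered deviations, which ran from -0.146 to 0.281 and did not pass 0.1 for every pair of any comparison, so the numbers are not treated as pairs. In the other tables the labels give no replicate number shared between groups, so no pairing was used.

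The members, the other gene lists and the comparisons were chosen with earlier results of these data known. Genes were named by size among called members (the 3 to 10 largest), with HMGCS1, INSIG1, SREBF1, SREBF2 and SCAP described throughout, as ranges in the construct table and, for the last 3, in the time courses. Promoter windows come from RefSeq (GRCh38.p14) and gene spans from GENCODE release 44. Some further genes of the marker and pathway lists are not reported here.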

Additional observations from a re-analysis of the deposited data

Results flagged for a closer look

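The effect of GSK343 differed between J2_7 and mAID cells for 6 members by a test of the difference itself (edgeR, adjusted over all 14649 genes), which is why they are listed here. The log2 difference of effects, J2_7 minus mAID, was 1.01 for STARD4, 0.99 for MSMO1, 0.93 for HMGCS1, 0.90 for INSIG1, 0.85 for IDI1 and 0.61 for SQLE. With DMSO, 3 of the 6 (HMGCS1, INSIG1 and STARD4) were called lower in J2_7 than in mAID cells. IDI1, SQLE and MSMO1 were lower there too, without overlap, but were not called. Those DMSO libraries enter both comparisons. J2_7 GSK343 library 1 held 782663 counts, the fewest of all libraries, and without it 6 members were called, as with it. The part of the DMSO levels in the difference was not tested.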

How the results depend on the processing

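The 187 member results checked were all called results, plus HMGCS1, INSIG1, SREBF1, SREBF2 and SCAP in comparisons among GSK343, ligand and DMSO. These 5 genes were included whether called or not. No call reversed under any alternative run. Of the 187 results 155 never changed status, among them results that had no call to lose, and 32 lost their call in some run. Of the non-omission alternatives, RLE scaling changed 0 of 187, and DESeq2, no filter and the fit of compared groups alone ended 3, 3 and 6. At 72 h after BCOR ligand the members called fell to 1 with no filter and to 1 with only the compared groups (2 otherwise), and ligand in EV cells gave 0 with only the compared groups (1 otherwise). Leaving out single libraries ended a call in 70 of 1158 rows, each 1 result in 1 omission. The 1158 include rows of results that were never called, so they are not a number of calls. Such omissions moved the members called with ligand in the inhibitor table over 0 to 1 (1 lower without DMSO library 2), GSK343 in mAID cells over 2 to 5, BCOR at 8 h over 0 to 1, at 24 h over 1 to 2 and at 72 h over 1 to 2. They moved KDM2B at 24 h over 0 to 1 and at 72 h over 2 to 4, ligand in EV cells over 0 to 1 and LF against EV over 0 to 1 (1 without LF DMSO library 1 or 2). GSK343 against DMSO gave 15 to 19 members in the inhibitor table, GSK343 in J2_7 cells 14 to 18, J2_7 against mAID 7 to 10 and the difference of effects 4 to 7.

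With replicate number as a block, which the pairing check does not back, counts kept their main value. They were 4 with GSK343 in mAID and 17 in J2_7 cells and 6 for the difference of effects. Of 108 member results, called or not, 0 lost a call. Same-numbered libraries correlated best with each other throughout in BCOR at 2 and 24 h and in J2_7 against mAID, which is a hint from the data and not the design. Low counts of the gene itself, 4 to 77 a library, limit CYP51A1 in the 4 ID tables, whose median library depth was not lower than that of the symbol table. Low depth limits the shallow GSK343 library 1 of J2_7 cells.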
